A study of Mus musculus with 6 samples.

Results

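Membrane mucins and galectins form the sugar-rich coat on the luminal face of the gut lining. This report covers 7 of the 20409 rows of the count table: the genes of 3 transmembrane mucins (*Muc1*, *Muc4* and *Muc13*) and of 4 galectins (*Lgals2*, *Lgals3*, *Lgals4* and *Lgals9*), chosen by symbol. Transmembrane mucins are long, heavily O-glycosylated proteins anchored in the apical membrane, where they make up the glycocalyx of the brush border and can pass signals to the cell through their short cytoplasmic tails. Galectins are small lectins made in the cytosol and secreted without a signal peptide. They bind galactose-containing sugars on mucins, hydrolases and other glycoproteins, cross-link them at the cell surface and take part in sorting glycoproteins to the apical membrane.

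The RNA came from duodenal villus epithelium of 6 mice, 3 wild type (WT) and 3 double mutant (DM), with 1 polyA-enriched library per mouse. DM mice carried Smad4 fl/fl, Ctnnb exon3 fl/wt and Villin-CreERT2 and received tamoxifen at 0.05 g/kg intraperitoneally on 4 days, and their villi were taken 7 days after induction. Cre driven by the Villin promoter acts throughout the intestinal epithelium, removing Smad4 and leaving a stabilised beta-catenin. WT mice were uninjected littermates, so the effects of genotype and of tamoxifen cannot be told apart. Ages are not given in the sources used here, and both groups were on a background enriched for C57BL6. Replicate 1 of each group was male and replicates 2 and 3 were female.

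Between 19678507 and 26337318 reads were counted per mouse, and 3 counts, the limit that a count of 0 allows, correspond to 0.114 to 0.152 CPM (counts relative to the library total). Levels below are CPM scaled with TMM, edgeR's correction for library composition, and groups are given as mean ± SD (n = 3). *Smad4* stood at 148 ± 30.3 CPM in WT and 31.6 ± 5.40 CPM in DM villi, a log2 fold change of -2.22 (edgeR adjusted p = 0.000145). Among 13346 genes tested, 19.7% rose and 17.0% fell at an adjusted p under 0.05, 36.8% in all, and the CPM ranges of the 2 groups did not overlap for 52.4%. WT replicate 1 stood apart from the other mice, since its 10 goblet markers held 0.0115% of its counts against 1.09% and 1.07% in the other WT mice and 0.503% to 0.556% in DM mice. Its 8 Paneth markers held 0.000725% against 0.0422% to 0.153% in the other 5 mice. Calls of the 7 genes that changed when this mouse was left out are given both ways.

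As a label check, 15 villus enterocyte markers held 4.76% to 5.42% of counts in WT and 3.43% to 3.79% in DM mice. The defining markers of other layers were near 0, with the 7 fibroblast and smooth muscle markers in the table at no more than 0.000635% and the 4 endothelial ones at no more than 0.000152% in any mouse. The 11 crypt stem and progenitor markers held 0.0116 ± 0.00606% of counts in WT and 0.0358 ± 0.00585% in DM villi, without overlap. WT replicate 1 was again lowest, at 0.00461% against 0.0144% and 0.0157% in the other WT mice. The log2 ratio of DM to WT shares was 1.63 with all mice and 1.25 without WT replicate 1. In bulk epithelium a lower level cannot be told apart as fewer cells of a type or less RNA per cell, which holds for every gene below.

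Of the 7 genes, *Muc1*, *Lgals2*, *Lgals4* and *Lgals9* rose in DM villi, *Lgals3* fell, and *Muc4* and *Muc13* did not pass the test, beside 19.7% of all genes higher and 17.0% lower. *Muc1* passed the filter on low counts only through the DM group, where it is high, so its place among the higher genes is no separate support. The plot of CPM by mouse shows the 2 groups apart for each gene except *Muc13*, and 52.4% of all tested genes showed the same lack of overlap.

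**Figure D1:**
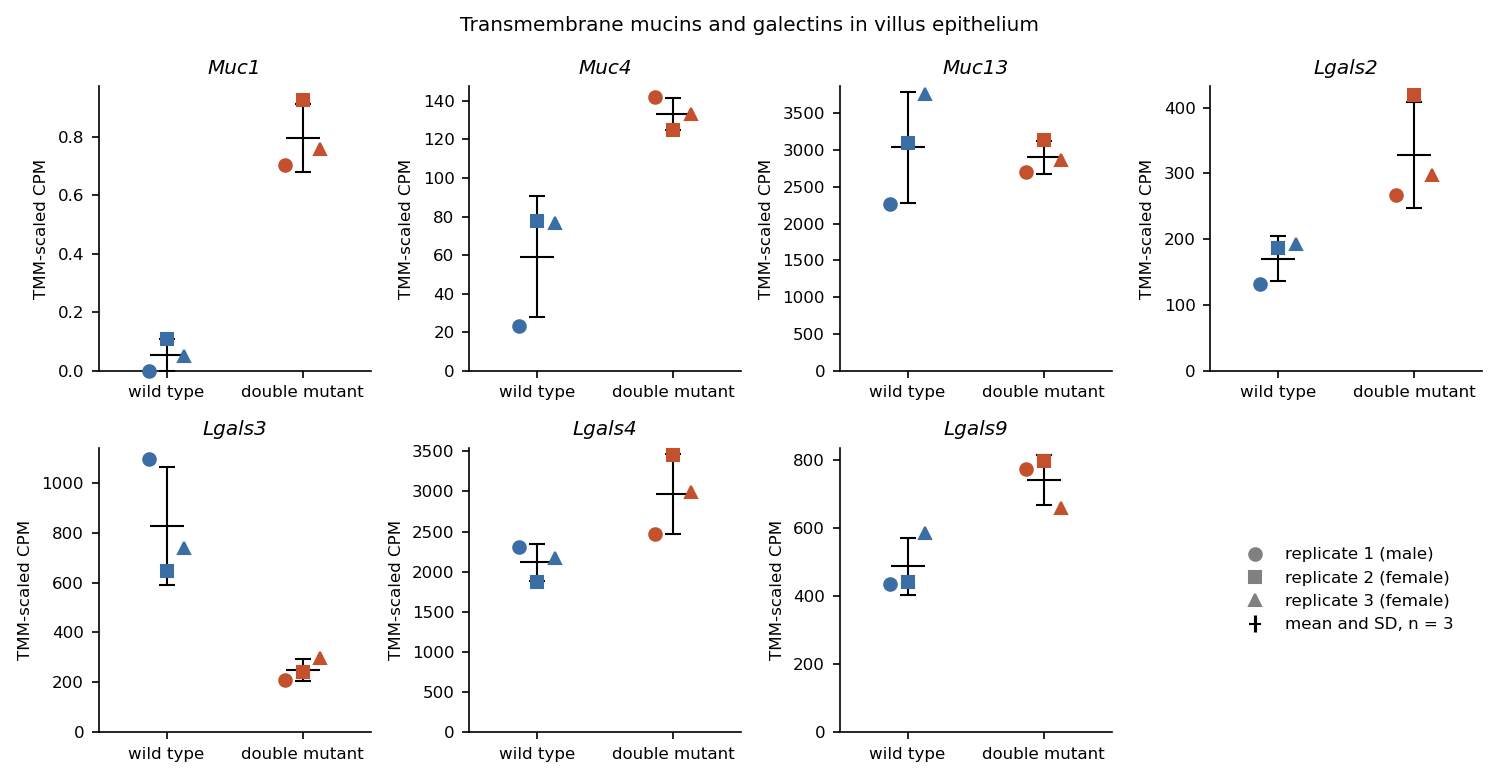
TMM-scaled CPM of each gene (vertical axis, linear, own scale per panel) in the 3 wild-type and 3 double mutant mice, with symbols for the replicate number and bars for mean and SD. *Lgals3* lies between 647 and 1096 CPM in wild-type and between 209 and 298 CPM in double mutant mice, and *Muc13* is the 1 panel whose groups overlap.

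The 7 genes lie on 6 chromosomes of mm9, with coordinates and exons from the GENCODE annotation of that build. *Muc1* (ENSMUSG00000042784, chr3:89032979-89037303, plus strand) has 7 exons in its coding transcript. *Muc4* (ENSMUSG00000079620, chr16:32735972-32782477, plus strand) has 27 exons in its longest coding transcript, and *Muc13* (ENSMUSG00000022824, chr16:33794123-33820020, plus strand) has 13 exons and lies further along the same chromosome. *Lgals2* (ENSMUSG00000043501, chr15:78681292-78685959, minus strand) has 4 exons, *Lgals3* (ENSMUSG00000050335, chr14:47987426-48005835, plus strand) has 6, *Lgals4* (ENSMUSG00000053964, chr7:29618813-29626722, plus strand) has 10 and *Lgals9* (ENSMUSG00000001123, chr11:78776476-78798448, minus strand) has 11. The strand setting of the authors' counting is not given in the sources used here. Without strand, reads cannot be told apart where a gene overlaps an antisense one, which concerns 627 exon bases (5.33%) of *Muc4* with *Muc20*, 184 (6.06%) of *Muc13* with Gm15657 and 41 (6.95%) of *Lgals2* with *Cdc42ep1*. In a search of coding transcripts, no member but *Muc4* matched another gene at 90% identity over 100 bases. The *Muc4* match was to *Muc20*, with 99.58% identity over 240 bases, and whether it lies in the overlap with *Muc20* was not checked. Some mouse strains carry *Lgals6*, a close copy of *Lgals4* that this annotation does not hold, so reads of such a copy would be counted under *Lgals4* or lost.

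The mutation removes *Smad4* and stabilises beta-catenin, the partner of TCF/LEF factors at Wnt targets, so the DNA just before each start site was read for the letters those factors favour. RefSeq's promoter table (GRCm38.p6) held 8 start sites for the 7 genes, *Muc13* having 2, and each 250-base stretch before the start matched mm9 exactly once. The stretches below run 5′ to 3′ from 220 to 101 bases before the start, for the galectin that fell, the galectin with the larger rise and *Muc1*, with any copy of the SMAD box GTCTG, or CAGAC on the other strand, in capitals.
Lgals3, mm9 chr14:47993315-47993434, plus strand: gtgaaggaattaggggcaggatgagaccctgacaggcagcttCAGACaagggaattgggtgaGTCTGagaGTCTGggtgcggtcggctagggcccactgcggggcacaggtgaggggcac
Lgals2, mm9 chr15:78686060-78686179, minus strand: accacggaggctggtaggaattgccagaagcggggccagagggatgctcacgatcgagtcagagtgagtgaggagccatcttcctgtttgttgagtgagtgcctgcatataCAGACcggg
Muc1, mm9 chr3:89032758-89032877, plus strand: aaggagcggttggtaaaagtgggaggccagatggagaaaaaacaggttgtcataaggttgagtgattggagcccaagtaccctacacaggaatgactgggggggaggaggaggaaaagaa

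*Lgals3*, whose RefSeq start lies 6109 bases inside the annotated gene, held 3 such boxes, at 178, 158 and 150 bases before that start, and *Lgals2* held 1, at 109. Over the 250 bases, 5 of the 8 promoters held the box on either strand, against 42.19% of 32851 RefSeq promoters of the same length, and 2.317% of those held 3 or more. The longer SMAD palindrome GTCTAGAC was in 0 of the 8 (0.1674% of promoters). Of the TCF/LEF letters, CTTTGAT and CTTTGTT were each in 0 of the 8, against 3.205% and 5.029% of promoters, both strands counted. None of these 4 motifs contains another. A match is a description of letters and not a bound site, and other letters or places for these factors were not searched.

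Set against exon length, the galectins and *Muc13* were abundant messages and *Muc1* was barely present. In WT villi, *Muc13* stood at 1001 ± 248 CPM per kb of exon, rank 55 of 13092 genes, and *Lgals4* at 893 ± 96.1, rank 65, with overlapping ranges. *Lgals3* followed at 445 ± 128 CPM per kb, then *Lgals2* at 289 ± 57.3 and *Lgals9* at 228 ± 39.4, and the ranges of the last pair overlapped. *Muc4* stood far below them at 5.04 ± 2.66 CPM per kb, rank 6344, and *Muc1* at 0.0226 ± 0.0232. In DM villi the order was *Lgals4* (1254 ± 209), *Muc13* (955 ± 73.1), *Lgals2* (555 ± 136), *Lgals9* (348 ± 34.4), *Lgals3* (134 ± 24.3), *Muc4* (11.3 ± 0.715) and *Muc1* (0.339 ± 0.0496 CPM per kb), with no overlap between neighbours. *Lgals3* thus moved from rank 128 to rank 433 of all genes, whereas *Lgals2* moved from 199 to 87.

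Among the mucins, *Muc13*, the most abundant of the 3 mucin messages, showed no difference that the test could call. Its levels were 2261, 3097 and 3764 CPM in the WT mice and 2705, 3143 and 2859 CPM in the DM mice. The 3 DM mice lay inside the WT range. The log2 fold change was -0.07, with a 95% interval from -0.49 to 0.35 (edgeR adjusted p = 0.802). A change of either sign within that interval is not excluded by these 6 mice, and the sign turned when WT replicate 3 was left out (0.11) and when libraries were scaled by their totals alone (0.12).

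*Muc4*, a large mucin with epidermal growth factor-like domains that binds the receptor ErbB2, was read at 23.2, 77.7 and 76.9 CPM in the WT mice and at 142, 125 and 133 CPM in the DM mice. The groups did not overlap, but WT replicate 1 lay far below the other WT mice, as it did for goblet genes. Across all 6 mice the log2 fold change was 1.17 with a 95% interval from 0.08 to 2.26, and the edgeR adjusted p of 0.0886 missed the threshold. Without that mouse the difference was smaller, 0.79, and passed (edgeR adjusted p = 0.000980, within a range of 0.000980 to 0.206 over 15 alternatives). Among females alone, a comparison chosen after seeing the data, it was 0.74 (edgeR adjusted p = 0.00127).

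The male-to-male difference in *Muc4* was 2.61 on the log2 scale against 0.74 between females, an interaction of 1.87 (edgeR adjusted p = 0.00154). Only 1 mouse of each group was male, so this p takes its spread from the females and assumes that males vary alike. The WT male is the mouse that nearly lacked goblet markers, so sex cannot be told apart from that library. *Muc2*, the gel-forming mucin of goblet cells, stood at 11.7 CPM in this mouse against 1138 and 1018 CPM in the other WT mice and at 500, 595 and 597 CPM in the DM mice. *Muc2* did not pass the test over the 6 mice (log2 fold change -0.36, edgeR adjusted p = 0.870) but was called lower without WT replicate 1. Between the female mice, where the goblet share was 1.09% and 1.07% in WT and 0.503% and 0.548% in DM, *Muc4* was still higher in both DM mice than in both WT mice. The part of the goblet share in the *Muc4* level was not tested.

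**Figure D2:**
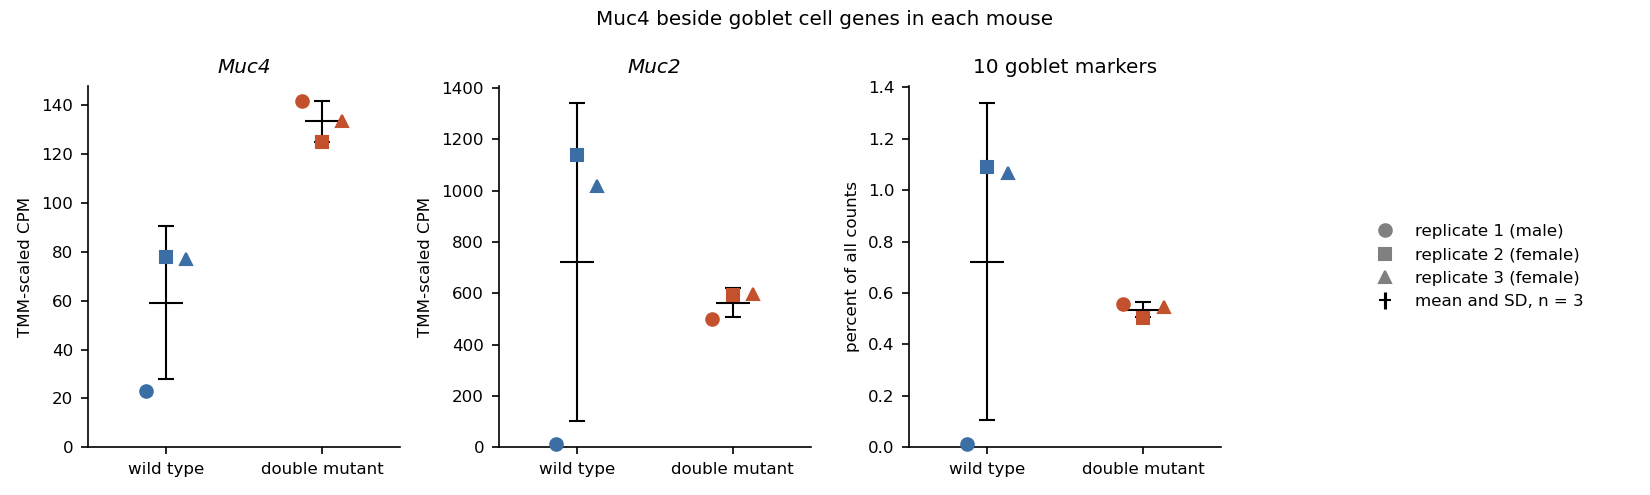
*Muc4* and *Muc2* in TMM-scaled CPM and the share of all counts held by 10 goblet markers, *Muc2* included, in each mouse (vertical axes, linear), with mean and SD. The wild-type male is lowest in all 3 panels, at 23.2 CPM, 11.7 CPM and 0.0115%, while the 3 double mutant mice lie together.

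*Muc1*, the mucin whose cytoplasmic tail can bind beta-catenin, was at the edge of detection. It had 0, 2 and 1 counts in the WT mice and 15, 20 and 16 counts in the DM mice, or 0, 0.109 and 0.0505 CPM against 0.704, 0.927 and 0.759 CPM. WT levels lay under the 3-count limit and DM levels above it in every mouse. From the summed counts of 3 and 51, and library totals scaled by TMM, the DM to WT ratio was 16.5, with a 95% counting interval from 5.35 to 82.8, which covers counting error only. The fitted log2 fold change of 3.87 (SE 0.758, edgeR adjusted p = 0.00503) depends on the prior count. It was 3.24 without WT replicate 1 and 4.795 without WT replicate 2, the lowest and highest with 1 mouse left out, and *Muc1* is not tested when at least 1 CPM in 3 mice is required. Even in DM villi, *Muc1* held 0.0350 ± 0.00245% of the summed per-kb level of the 3 mucins, against 98.8 ± 0.157% for *Muc13*. *Muc4* moved from 0.478 ± 0.194% of that sum to 1.18 ± 0.160%, without overlap (two-sided exact permutation p = 0.1, the lowest value this design can give).

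Among the galectins, *Lgals3* moved opposite to *Lgals2*, *Lgals4* and *Lgals9*, which rose. Galectin-3 is the chimera-type galectin, which forms oligomers through its N-terminal tail and is known for sorting glycoproteins such as lactase to the apical membrane. It was read at 1096, 647 and 738 CPM in the WT mice and at 209, 241 and 298 CPM in the DM mice. The lowest WT mouse was above the highest DM mouse. The log2 fold change was -1.73 (SE 0.220, edgeR adjusted p = 0.000823), a level 3.32 times higher in WT. *Lgals3* was also highest in WT replicate 1, and without that mouse the log2 fold change was -1.47 (edgeR adjusted p = 0.000127). It was called lower under all 15 alternatives run on it, with log2 fold changes from -1.88 to -1.36 and adjusted p from 1.201e-14 to 0.00712, but did not reach the size of 2 on the log2 scale that the study's methods set.

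*Lgals2*, a prototype galectin with 1 carbohydrate-binding domain per chain, rose most among the 4 galectins. It was read at 132, 187 and 193 CPM in the WT mice and at 267, 418 and 298 CPM in the DM mice. DM replicate 2 was the highest and the groups did not overlap. The log2 fold change was 0.94 (SE 0.206, edgeR adjusted p = 0.00880), a 1.92-fold rise that was called under each of 15 alternatives (0.73 to 1.13, with 0.79 without WT replicate 1).

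*Lgals9*, a tandem-repeat galectin with 2 carbohydrate-binding domains, is known as a ligand of immune cell receptors and as a factor in epithelial polarity. Its levels were 435, 443 and 585 CPM in the WT mice and 773, 797 and 659 CPM in the DM mice, without overlap. The log2 fold change was 0.61 (SE 0.148, edgeR adjusted p = 0.0132). The call was lost by a small margin without WT replicate 2 (0.54, edgeR adjusted p = 0.0531, the highest of 15 alternatives whose lowest was 0.00181).

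*Lgals4*, the tandem-repeat galectin that holds glycolipid-rich domains of the brush border together, was the most abundant of the 4. It was read at 2313, 1867 and 2169 CPM in the WT mice and at 2467, 3457 and 2988 CPM in the DM mice. DM replicate 1 stood only slightly above WT replicate 1. The log2 fold change was 0.49 (95% interval 0.14 to 0.84, edgeR adjusted p = 0.0373). This call was the least stable of the 5, with adjusted p between 0.00594 and 0.137 over its 15 alternatives. It was lost without WT replicate 2 (0.40), WT replicate 3 (0.50), DM replicate 2 (0.37) or DM replicate 3 (0.49). The call was also lost with replicate number as a block (0.48).

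**Figure D3:**
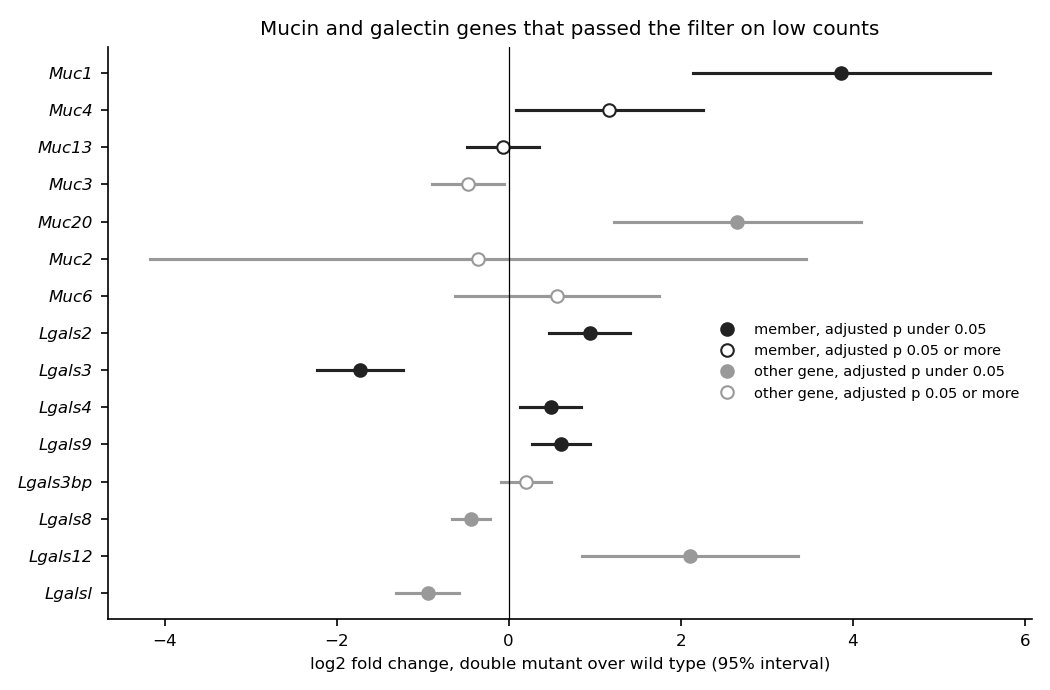
Log2 fold change, double mutant over wild type, with its 95% interval from the edgeR fit (horizontal axis) for the 7 genes (black) and the other mucin and galectin genes that passed the filter on low counts (grey), filled where the adjusted p is under 0.05. *Lgals3* is the black point well below 0, at -1.73, and *Muc2* has the widest interval.

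Read as a pool, the 4 galectin messages differed in make-up between the groups. Their summed level was 1856 ± 174 CPM per kb in WT and 2291 ± 355 in DM villi, with overlapping ranges (exact permutation test, two-sided, p = 0.2). The overlap came from WT replicate 1, at 1993 against 1967 in the lowest DM mouse, and the other WT mice stood at 1661 and 1913. *Lgals3* made up 29.6%, 21.0% and 20.8% of that sum in the WT mice and 5.72%, 4.86% and 7.18% in the DM mice. *Lgals2* went from 15.8 ± 4.10% to 24.0 ± 2.18% and *Lgals4* from 48.1 ± 0.797% to 54.7 ± 1.75%, each without overlap and each, as for *Lgals3*, at the smallest exact permutation p possible here, 0.1. The share of *Lgals9* overlapped between the groups (12.3 ± 2.04% and 15.4 ± 2.61%, exact permutation p = 0.3).

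Ratios within a mouse restate the same counts and, like the shares above, need no scaling between libraries, so they are no separate support. The per-kb ratio of *Lgals2* to *Lgals3* was 0.379, 0.910 and 0.824 in the WT mice and 4.02, 5.46 and 3.15 in the DM mice, a 6.24-fold shift. *Lgals3* was the more abundant of the pair in every WT mouse and *Lgals2* in every DM mouse. For *Lgals4* to *Lgals3* the shift was 4.56-fold and for *Lgals9* to *Lgals3* it was 5.004-fold, also without overlap.

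**Figure D4:**
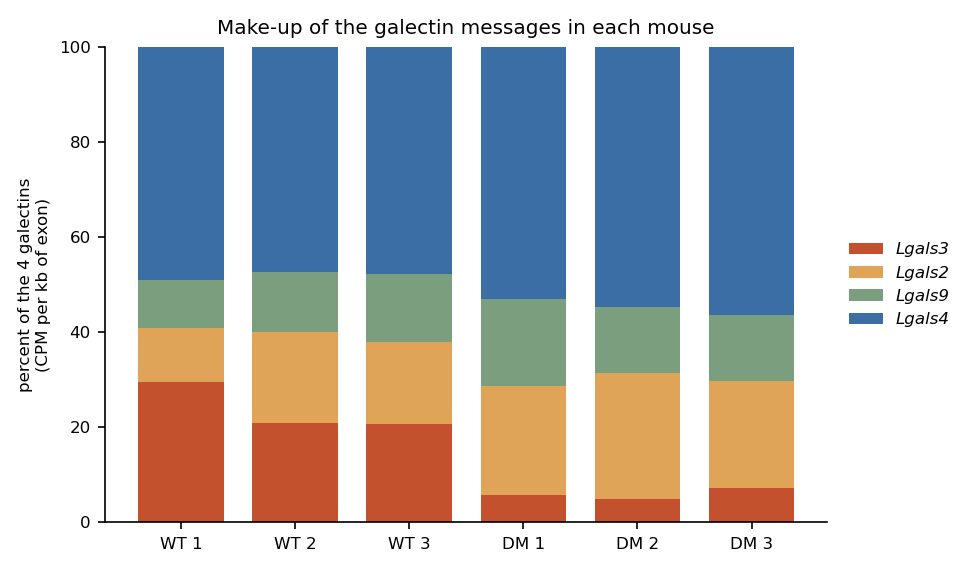
Share of each of the 4 galectins in their summed level (vertical axis, percent of CPM per kb of exon) in each wild-type (WT) and double mutant (DM) mouse. *Lgals3* shrinks from between 20.8% and 29.6% of the bar to between 4.86% and 7.18%, and *Lgals4* remains the largest part in every mouse.

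Of 7 other transmembrane mucins listed, 2 were tested and 1 was called, beside 36.8% of all genes. *Muc3*, a large brush border mucin, was at 2443, 2092 and 2137 CPM in WT and 1171, 1890 and 1762 CPM in DM mice, without overlap, and its log2 fold change of -0.47 missed the threshold (edgeR adjusted p = 0.0770), although DESeq2 called it lower. *Muc20*, which overlaps *Muc4* on the other strand, had 1, 4 and 3 counts in WT and 13, 24 and 18 in DM mice, and was called higher (log2 fold change 2.66, edgeR adjusted p = 0.0117). Like *Muc1*, it passed the filter on low counts only through the DM group, and its call was lost without DM replicate 2, while at a minimum of 1 CPM in 3 mice it was not tested. Since *Muc4* reads outnumber these many times over, reads from the shared exons cannot be told apart without strand. Of the secreted gel-forming mucins, *Muc2* is described above, *Muc6*, of gastric and duodenal glands, did not pass the test (0.56, edgeR adjusted p = 0.430), and *Muc5b* had 0 to 10 counts per mouse and was not tested.

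Of 8 other galectin and galectin-related genes, the galectin-3 ligand *Lgals3bp* included, 4 were tested, with 1 higher and 2 lower, beside 19.7% and 17.0% of all genes. *Lgals8*, a sensor of damaged endosomes, was at 137, 128 and 141 CPM in WT and 98.1, 101 and 99.4 CPM in DM mice, a log2 fold change of -0.44 (edgeR adjusted p = 0.00855), a call lost with library size alone. *Lgalsl*, a galectin-related protein, fell from 46.6 ± 9.97 to 24.2 ± 1.81 CPM (-0.94, edgeR adjusted p = 0.00287). *Lgals12*, a galectin best known from fat cells, was low in both groups at 0.857 ± 0.696 and 3.67 ± 0.341 CPM and rose by 2.11 on the log2 scale (edgeR adjusted p = 0.0176), a call lost without WT replicate 2, DM replicate 1 or DM replicate 3. Like *Muc1* and *Muc20*, *Lgals12* passed the filter on low counts only through the DM group, where it is high. Its place as the 1 called higher is thus no separate support. *Lgals3bp*, a secreted glycoprotein that binds galectin-3, was at 418 ± 54.4 and 479 ± 29.1 CPM and did not pass the test (0.20, edgeR adjusted p = 0.258). *Lgals1* had 0 to 12 counts per mouse and *Lgals7* 0 to 6, too few to test.

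The enzymes that build mucin-type O-glycans moved both ways. Of 30 tested, 9 rose and 8 fell, beside 19.7% and 17.0% of all genes, with a median log2 fold change of -0.28 against 0.02 for all genes. *B3galt5*, which adds galactose to make type 1 chains, went from 8.03, 50.5 and 30.3 CPM to 276, 426 and 326 CPM (log2 fold change 3.54, edgeR adjusted p = 0.0158). *Chst4*, a sulfotransferase of mucin sugars, went from 4.45, 31.0 and 27.3 CPM to 140, 187 and 173 CPM (3.00, edgeR adjusted p = 0.0297). WT replicate 1 was the lowest mouse for both, and their lowest DM mouse was still several times above the highest WT mouse. Of sialyltransferases, *St6galnac6* fell from 6.90 ± 0.899 to 0.297 ± 0.135 CPM (-4.51, edgeR adjusted p = 0.000136) and *St3gal2* from 1.44 ± 0.421 to 0.407 ± 0.102 CPM (-1.80, edgeR adjusted p = 0.0125). Both passed the filter on low counts only through the WT group, with 3 to 11 counts in each DM mouse. The other sialyltransferases called, all named here after their values were seen, went both ways. *St3gal3* (2.04) and *St6galnac2* (0.42) were called higher (edgeR adjusted p = 0.00826 and 0.0236). *St3gal4*, the most abundant sialyltransferase listed, fell from 2053 ± 81.0 to 1145 ± 132 CPM (-0.84, edgeR adjusted p = 0.0015). *St3gal6* (-1.02) and *St3gal1* (-1.28) were also called lower (edgeR adjusted p = 0.00045 and 0.00757). The number higher was 7 and the number lower 12 without WT replicate 1, and the number higher was 4 or 5 with any other mouse left out.

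N-glycan branching, which sets how many galectin-binding chains a glycoprotein carries, gave smaller differences. Of 12 enzymes tested, 2 rose and 4 fell, beside 19.7% and 17.0% of all genes, with a median log2 fold change of 0.07. *Mgat3*, which adds the bisecting sugar that stops further branching, fell by 0.98 on the log2 scale (edgeR adjusted p = 0.000577), and the galactosyltransferase *B4galt1* fell by 0.55 (edgeR adjusted p = 0.0124). *Mgat4b*, a branching enzyme, rose by 0.43 and *B4galt4* by 0.43 (edgeR adjusted p = 0.0223 and 0.0348), but 0 of the list rose without WT replicate 1, DM replicate 2 or DM replicate 3. The number that fell was 1 without DM replicate 3 and with library size alone.

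The next list mixed brush border partners of transmembrane mucins, scaffolds among them, with glycoproteins that galectins can carry. Of its 16 genes, 15 fell and 0 rose, beside 17.0% of all genes lower, with a median of -1.08. The count was 14 or 15 with any 1 mouse left out. *Lct*, the lactase gene, fell from 2871 ± 242 to 696 ± 229 CPM (-2.04, edgeR adjusted p = 0.000704) and *Pdzk1*, a microvillus scaffold, from 243 ± 57.9 to 79.8 ± 11.9 CPM (-1.61, edgeR adjusted p = 0.000577). The exception was *Ush1c*, at -0.32 (edgeR adjusted p = 0.0521). *Muc13* and *Lgals4* did not move with this list, the former showing no called difference and the latter a rise. Of 6 proteases that can release mucin ectodomains, *Mmp14* (1.05) and *Adam9* (0.68) rose and *Mep1b*, a meprin of the brush border, fell by 0.44 (edgeR adjusted p = 0.00699, 0.00803 and 0.0221). These counts stand beside 19.7% of all genes higher and 17.0% lower. The call of *Mep1b* was less steady, as the number of proteases called lower ran from 0 to 2 over the alternatives.

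Across the 6 mice, the genes with log2 CPM most like each member tracked it closely, as a description over points that share 2 groups. *Slc39a11*, a zinc transporter, followed *Muc1* (Pearson's r = 0.9997, n = 6), with *Nme6* and *Ube2c* next. *BC048355*, *Eif2ak4* and *Celsr2* were most like *Muc4*, and *Cd97*, *Prpf4* and *Mgat4b* most like *Lgals2*. ENSMUSG00000079084 and *Eif4h* were among those most like *Lgals3*. C030013C21Rik, *Rpl28* and *Mrpl2* were most like *Lgals4*, and *Atxn10*, *Dnajc1* and *Ece2* most like *Lgals9*. *Muc13* was followed less closely, by *Atp9a* (r = 0.983), *Mdfic* and *Mocs3*. At an r of 0.95 or more, 12 genes followed *Muc13*, against 211 to 874 for each other member.

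Fold changes under other tests, scalings, filters and covariates, and with each mouse left out, are shown together for the 7 genes in the plot of alternatives.

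**Figure D5:**
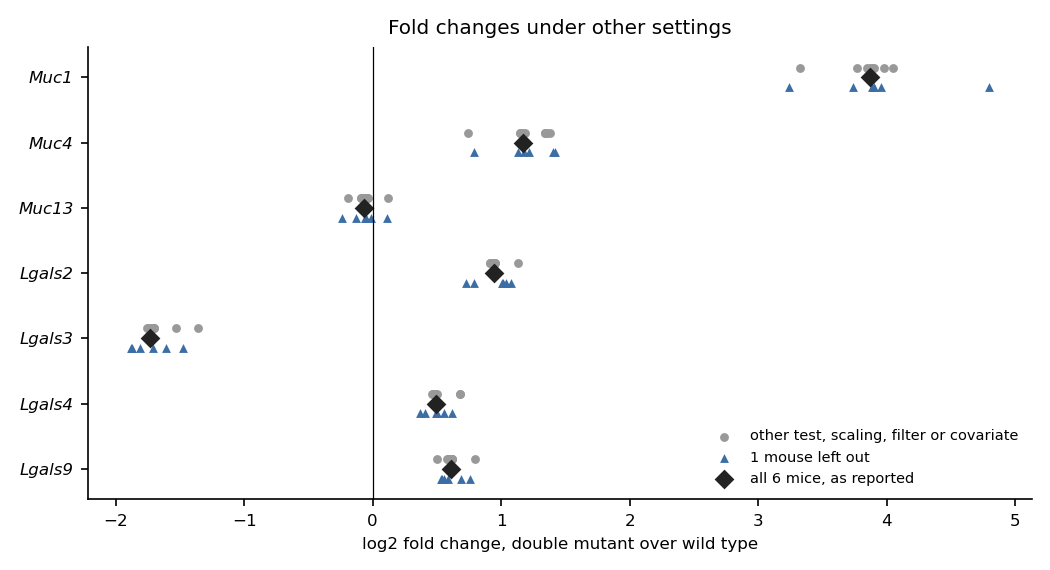
Log2 fold change, double mutant over wild type (horizontal axis), of each gene with all 6 mice as reported (diamond), with 1 mouse left out (triangles) and under other settings (circles, females alone included). *Muc13* is the gene whose points lie on both sides of 0, from -0.24 to 0.12, and the left-most *Muc4* points, 0.79 and 0.74, leave out the wild-type male.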

How the data were processed

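RNA of villus epithelium from 3 wild-type and 3 double mutant mice was sequenced as 1 polyA-enriched, paired-end library per mouse. Raw counts per gene were deposited by the authors, unscaled and with replicates kept apart, from cleaned reads placed on mm9 by HISAT2 and summed by featureCounts. The strand setting and the annotation used are not given in the sources used here. Symbols and coordinates came from GENCODE for mm9, which held 20032 of 20073 Ensembl identifiers. The other 336 rows are numbered transcripts. Symbols missing there were matched through RefSeq synonyms (3 genes, among them *Lgalsl*).

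Groups, replicate numbers and sexes were taken from the labels. Genes were kept by filterByExpr, scaled by TMM and tested with edgeR's robust quasi-likelihood test (edgeR 4.0.16, R 4.3.3), with Benjamini-Hochberg adjustment over all 13346 genes and a threshold of 0.05. The SE was taken as the size of the log2 fold change over the root of the quasi-likelihood F. The script was tested on simulated data first. Levels per kb use the union of annotated exons. Likeness between genes is Pearson's r of log2 CPM with a prior count of 2. Promoters were read from RefSeq and placed on mm9 by exact match, and copies were sought with blastn 2.17.0. Single values were compared by two-sided exact permutation tests, whose smallest p with 3 against 3 is 0.1. Intervals and floors for counts cover counting error only, as reads carry no molecular identifiers.

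Named genes are the 7 members, each tested gene of the remaining mucins and galectins, the 2 called genes that changed most in each direction in every other pathway list, the 3 genes most like each member, and *Smad4*, of which 1 gene is not reported here. Markers of 11 cell types were summed as shares of counts. In percent of counts (WT mean, then DM mean), tuft markers held 0.0172 and 0.00174, enteroendocrine 0.0280 and 0.0114, macrophage and dendritic 0.00123 and 0.00129, lymphocyte 0.0111 and 0.00860, and Brunner gland and gastric surface 0.000137 and 0.000363. The members and lists were chosen with earlier results of these data known.

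Alternatives were DESeq2 1.42.0, limma-voom (limma 3.58.1), RLE factors, library size alone, no low-count filter, at least 1 CPM in 3 mice, a replicate block, sex as a covariate, each mouse left out, a log2 fold change of at least 2, and females alone, which was added after seeing the data.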

Additional observations from a re-analysis of the deposited data

Results flagged for a closer look

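The difference of *Muc4* between DM and WT mice was larger between the males than between the females, by 1.87 on the log2 scale (edgeR interaction test, adjusted p = 0.00154). It was 2.61 between the 1 WT and 1 DM male and 0.74 between the females. That of *Muc2* differed by 6.27 (edgeR interaction test, adjusted p = 2.893e-06), being 5.40 between the males and -0.85 between the females, so the sign turned. With 1 male per group the spread behind both p-values is that of the females, and males are assumed to vary alike. The same test passed for 353 of 13346 genes (2.645%). The WT male is the library with 0.0115% of its counts in goblet markers, so sex and that library cannot be told apart.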

How the results depend on the processing

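Of 104 values for the 7 genes under alternatives, 93 kept their direction and their side of the threshold. *Muc1*, *Lgals2* and *Lgals3* kept both under each alternative that gave a value, and *Muc1* gave none at a minimum of 1 CPM in 3 mice. *Muc4* passed with limma-voom (1.38), among females alone (0.74) and without WT replicate 1, and leaving out each mouse gave 0.79 to 1.42. *Muc13* turned positive with library size alone (0.12) and without WT replicate 3 (0.11), with a range of -0.24 to 0.11 on leaving out mice. *Lgals4* ran from 0.37 to 0.62 and *Lgals9* from 0.53 to 0.75 on leaving out mice, with calls lost as described.

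The number of the 7 genes called higher, 4 in all mice, was 2 to 5 with a mouse left out (2 without WT replicate 2) and 1 at a log2 fold change of at least 2, where 0 were called lower and 708 genes were called in all against 4906. With library size alone, the median log2 fold change of all genes moved from 0.02 to 0.22 and 72.4% of calls were higher instead of 53.65%. Relative to that median *Muc13* stays below 0. Same-numbered mice, which share sex, did not deviate together (r = 0.0224, -0.109 and 0.0123). The paper states that replicates were matched between the groups by age and sex. These r values, from deviations around means of 3 mice, cannot show whether the numbers follow that matching. With the replicate block, 3844 genes were called and *Lgals4* missed the threshold (0.48, edgeR adjusted p = 0.0982). Of 196 list counts, 163 stayed within 1.5 times the main count, and 75 of 77 marker shares moved by less than their spread between mice. The causes were not tested.

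With 3 mice a group, the spread of a gene sets what can be called, as in the *Muc13* interval of -0.49 to 0.35, and for *Muc1* a WT level under 3 counts limits the fold.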
